A study of Homo sapiens with 2 samples.

Results

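The CLK and SRPK kinases phosphorylate the serine and arginine rich (SR) proteins that help to define exons. The 7 kinase genes CLK1, CLK2, CLK3, CLK4, SRPK1, SRPK2 and SRPK3 were taken from the gene count table by their symbols, together with EDC3, which lies on the strand opposite to CLK3. All 8 genes were found, of 58347 genes in the table and 19804 protein-coding genes. The counts came from U2AF2 eCLIP of HEL, a human erythroleukemia cell line grown without treatment, in 1 group of 2 biological replicates. In eCLIP, ultraviolet light joins RNA to the proteins that touch it, an antibody pulls down one protein, and the RNA that comes with it is sequenced. Each sample's source names HEL cells, while its cell line tag holds the name of the protein, U2AF2. No input library was analysed here, so no value is an enrichment.

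SR protein kinases of the SRPK family act mainly in the cytoplasm, where phosphorylation lets SR proteins enter the nucleus. CLK kinases act in the nucleus and release SR proteins from nuclear speckles. U2AF2, the large subunit of U2AF, binds the pyrimidine-rich tract that precedes the AG at the end of an intron, the 3′ splice site. CLK1 and CLK4 transcripts are known to retain introns around an alternatively spliced exon. EDC3 is a cofactor of mRNA decapping found in processing bodies.

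Genes held 995428 counts in replicate 1 and 1350116 in replicate 2, which was 2.66% and 2.60% of the uniquely mapped reads. Levels are given as CPM, counts per 1000000 of the scaled library size. Where a gene had a count of 0, the limit was 3 counts, or 2.98 CPM for replicate 1 and 2.25 CPM for replicate 2. Intervals and floors cover counting error only. Of the lineage markers, 1 of 5 megakaryocyte genes (GP1BA, 312 and 413 counts) and 0 of 6 genes of other blood cells reached 10 counts in both libraries. The share was 24.8% of all protein-coding genes. CHRNE, a gene of the opposite strand, lay over the exons of GP1BA. The strand setting of the count is not given in the sources used here. For every gene below it is therefore uncertain which strand its reads came from, and a count is not a level of that gene's own RNA.

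The sequences that bear on the kinase loci are 3′ splice sites lying inside annotated exons, since gene counts are usually taken over annotated exons. The exons of CLK3, SRPK1 and SRPK2 cover 3′ splice sites of the gene on the other strand, and the exons of AC004884.2, an antisense RNA gene inside SRPK2, cover one of SRPK2. These 5 sites are shown in the direction of the gene that is spliced, as 27 intron bases and 3 exon bases read from GENCODE 29 transcripts (GRCh38). Capitals mark the longest run of C and T within these intron bases.
EDC3 site in CLK3 exons, chr15:74635624-74635653, minus strand: atactgcttcttcaCCTTCTTTTCCaggtt
EDC3 site in CLK3 exons, chr15:74640617-74640646, minus strand: CCTTTCTCTTCTCCTTTTgaactgcagact
SRPK2 site in AC004884.2 exons, chr7:105306569-105306598, minus strand: cttcatgactgTTTTTTCTTTgttcaggtg
LHFPL5 site in SRPK1 exons, chr6:35833583-35833612, plus strand: aagcctaacttaaaaTTCTTTCTacaggaa
KMT2E site in SRPK2 exons, chr7:105110744-105110773, plus strand: ttactataggTTTCTTCTgctttatagacc

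The kinase genes also cover some of their own 3′ splice sites. For CLK1 and CLK4 the site with the longest run that ends in AG is shown for comparison. The 3 SRPK3 sites tie at a longest run of 4, and the first by position is shown, which also has the highest pyrimidine share of the 3.
CLK1 site in CLK1 exons, chr2:200859744-200859773, minus strand: tgactgagatttaTTTCTCTCTTTTagatg
CLK4 site in CLK4 exons, chr5:178616946-178616975, minus strand: acaCCTCTTTTTCCCTCCTCactctagatg
SRPK3 site in SRPK3 exons, chrX:153781189-153781218, plus strand: gcccactgccactcaCCCCacccgcagctc

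Over the last 50 intron bases, pyrimidines made up 52% to 74% of the 5 opposite-strand sites, with a median of 64%. They made up 44% to 86% of the 37 own sites that lie inside exons of the 8 genes, with a median of 60%. Own sites outside these exons were not read. Of the 37, 35 end in AG, and an EDC3 site covered by both EDC3 and CLK3 exons is in both sets. Within the last 27 intron bases of each site, the longest run was 18 bases at an EDC3 site and 17 bases at a CLK4 site. The EDC3 run begins at the first of these bases, so it may be longer.

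The counts fell on a small part of the family. CLK3 and SRPK3 held 96.0% of the counts of all 8 genes in replicate 1 and 95.2% in replicate 2. CLK1, CLK2, CLK4 and SRPK1 stayed under 10 counts in every library. A minimum of 10 counts in both libraries was reached by 4 of the 8 genes, CLK3, SRPK3, SRPK2 and EDC3, against 24.8% of all protein-coding genes. The median summed count over both libraries was 66 for the 8 genes, 12 for the 7 kinases and 4 for all protein-coding genes. In log2 CPM the median was 4.19 for the 8 genes, 2.65 for the 7 kinases and 1.78 for all protein-coding genes.

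**Figure D1:**
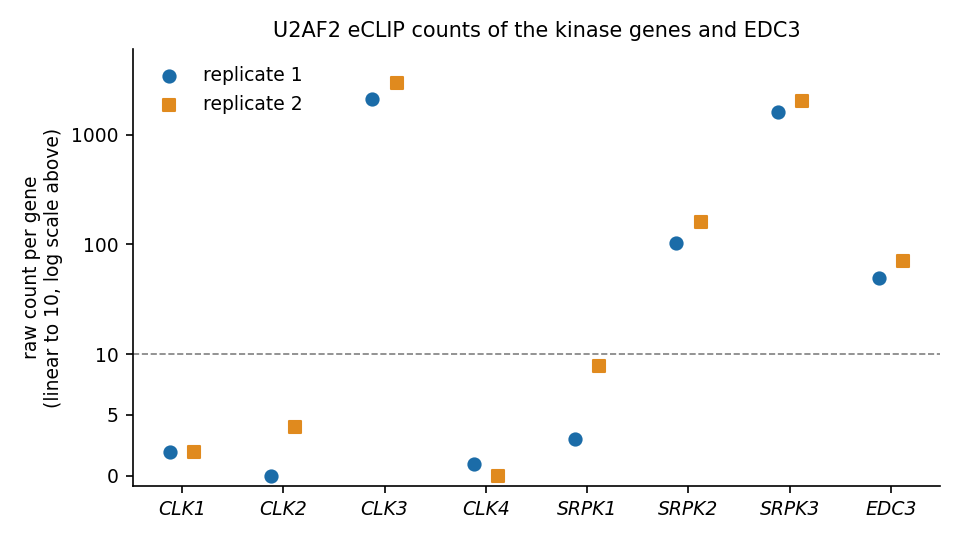
Raw counts of the 7 kinase genes and EDC3 in replicate 1 (circles) and replicate 2 (squares), on an axis that is linear to 10 counts and logarithmic above; the dashed line marks 10 counts. CLK3 and SRPK3 lie above 1600 counts in both libraries, while CLK1, CLK2, CLK4 and SRPK1 lie below the line in both.

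CLK1 held 2 counts in replicate 1 and 2 in replicate 2. The exact 95% Poisson interval of a count of 2 runs from 0.242 to 7.22. Its 5170 exonic bases covered 8 of its own 3′ splice sites and none of the opposite strand, and no gene of the opposite strand lay over its exons. CLK1 is a nuclear kinase that phosphorylates serine, threonine and tyrosine.

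CLK4, the closest relative of CLK1, held 1 count in replicate 1 and 0 in replicate 2. It too covered many of its own 3′ splice sites, 7 over 7924 exonic bases, and had no opposite-strand gene over its exons. For a count of 0 the upper end of the exact 95% Poisson interval is 3.69 counts, a different measure from the fixed limit of 3 counts given above. The CLK1 and CLK4 intervals overlap, so the order of these genes was not detectable at this depth.

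CLK2 held 0 counts in replicate 1 and 4 in replicate 2. Its exons covered 5 own 3′ splice sites. HCN3, a pacemaker channel gene, lies opposite and spans 117 exonic bases of CLK2 with no overlap between the exons of the 2 genes, and it held 2 and 8 counts. Both genes of this pair were thus low in both libraries.

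CLK3 (chromosome 15, 74598500 to 74645414, plus strand, GRCh38) held 2120 counts in replicate 1 and 2928 in replicate 2, or 2150 ± 66.1 CPM (SD, n = 2). It ranked 7 among the 19804 protein-coding genes by counts and 196 by counts per kb of merged exon. Per kb of merged exon it held 247 counts over both libraries, against 1.09 for CLK2, 0.774 for CLK1 and 0.126 for CLK4. CLK3 therefore stood far above the other CLK genes in both libraries, with no overlap of the exact 95% Poisson intervals. In replicate 1 the interval was 2031 to 2212 counts for CLK3, and the nearest was 0.242 to 7.22 for CLK1. In replicate 2 it was 2823 to 3036 for CLK3, and the nearest was 1.09 to 10.2 for CLK2.

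The exons of CLK3 reach far into EDC3 at the 3′ end of the gene. They covered 20443 bases, of which a single annotated transcript, CLK3-212, added 9918. EDC3 spans 10317 of these exonic bases, or 399 without that transcript. Of the 10317, 9616 lie in EDC3 introns and 701 are exonic in both genes. Both EDC3 splice sites shown above fall in CLK3-212. The annotation release behind the deposited counts is not given, so it is uncertain whether this transcript was counted.

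EDC3 (chromosome 15, 74630558 to 74696292, minus strand) held 49 and 71 counts, or 50.9 ± 3.29 CPM (SD, n = 2). Of the counts of EDC3 and CLK3 together, EDC3 held 2.26% in replicate 1 (exact 95% binomial interval 1.68 to 2.98) and 2.37% in replicate 2 (1.85 to 2.98). Per kb of merged exon its share was 8.47% and 8.85%. EDC3 exons covered 1 of the gene's own 3′ splice sites and none of CLK3. The pair was therefore uneven in both libraries.

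Further genes lie opposite CLK3. AC100835.2, a long intergenic RNA gene of 479 bases within the first CLK3 exon, held 26 and 28 counts, and AC100835.1, an antisense RNA gene, held 0 and 4. Per kb of exon AC100835.2 held 113 counts over both libraries and AC100835.1 held 8.03, both below CLK3.

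**Figure D2:**
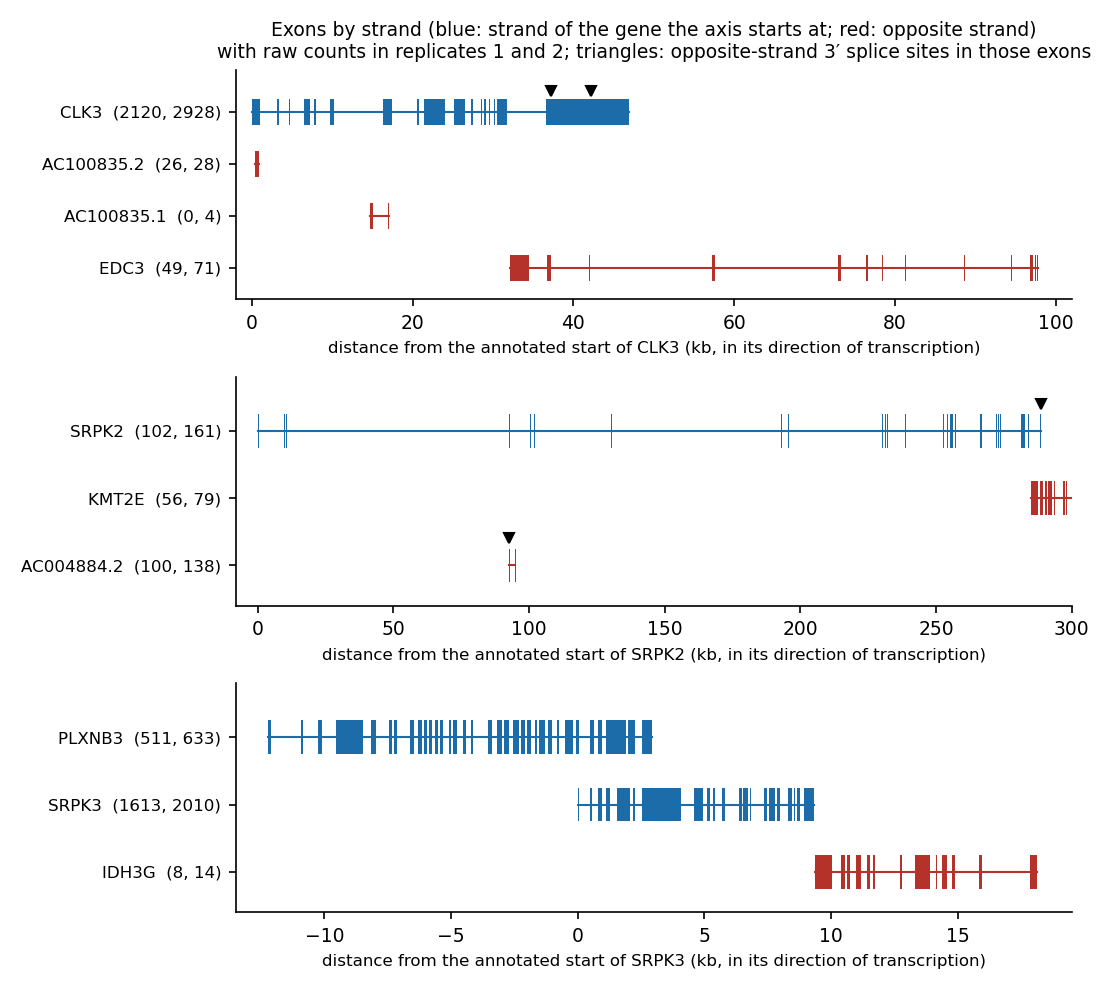
Annotated exons (boxes) at CLK3, SRPK2 and SRPK3 against distance in kb from the start of the gene named under each panel, coloured by strand, with raw counts in replicates 1 and 2 after each name. Triangles mark 3′ splice sites of the other strand's gene: 2 EDC3 sites in the last CLK3 exon, 1 KMT2E site in SRPK2 and 1 SRPK2 site in AC004884.2; SRPK3 has none.

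SRPK1, an SR protein kinase made in most tissues, held 3 counts in replicate 1 and 9 in replicate 2. LHFPL5, a gene for a membrane protein of inner ear hair cells that lies tail to tail with it, held 62 and 74 counts. The LHFPL5 span covers 909 exonic bases of SRPK1, with 265 bases exonic in both genes. SRPK1 held 4.62% of the counts of the pair in replicate 1 (exact 95% binomial interval 0.962 to 12.9) and 10.8% in replicate 2 (5.08 to 19.6). The partner held more in both libraries. The LHFPL5 site shown above lies in SRPK1 exons, and LHFPL5 exons cover no SRPK1 site. Whether a covered site bears on the counts of a pair was not tested. Of the genes whose exons cover a site of their partner, CLK3 held more counts than EDC3, and SRPK2 more than KMT2E. SRPK1 held fewer than LHFPL5. AC004884.2 had a total like that of SRPK2 but more counts per kb of exon.

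SRPK2, a relative of SRPK1, held 102 and 161 counts, or 111 ± 13.9 CPM (SD, n = 2), over 6341 exonic bases. AC004884.2 (chromosome 7, 105304277 to 105306642, plus strand) held 100 and 138 counts over 546 exonic bases, of which 136 are also exonic in SRPK2. Per kb of exon that was 41.5 counts for SRPK2 and 436 for AC004884.2 over both libraries. SRPK2 held 50.5% of the counts of this pair in replicate 1 (exact 95% binomial interval 43.4 to 57.6) and 53.8% in replicate 2 (48.0 to 59.6), so the 2 genes had like totals, but the antisense gene had the higher density in both libraries.

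At its 3′ end SRPK2 meets KMT2E, a chromatin regulator gene, which held 56 and 79 counts, or 14.6 per kb of exon over both libraries. One SRPK2 transcript, SRPK2-215, supplies all 485 SRPK2 exonic bases under KMT2E and covers the KMT2E site shown above. Inside SRPK2 introns the opposite strand also carries 4 processed pseudogenes and a small nuclear RNA gene. AC004884.1 held 11 and 7 counts, RWDD4P1 6 and 14, AC005070.1 and AC005070.2 each 1 and 4, and RNU6-1322P 1 and 3.

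SRPK3 (chromosome X, 153776412 to 153785732, plus strand), a kinase best known from skeletal and heart muscle, held 1613 and 2010 counts, or 1554 ± 65.2 CPM (SD, n = 2). It ranked 22 among protein-coding genes by counts and 20 by counts per kb of merged exon, with 764 per kb over both libraries. In contrast to CLK3, no gene of the opposite strand lay over its exons. As many counts as SRPK3 were held by 3 of 11433 protein-coding genes without an opposite-strand gene, SRPK3 included, which is 0.0262%, and by 0.111% of all protein-coding genes.

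The neighbours of SRPK3 gave further values. PLXNB3, a plexin gene on the same strand, shares 1432 of the 4744 exonic bases of SRPK3 and held 511 and 633 counts. IDH3G, an isocitrate dehydrogenase subunit gene, lies 33 bases beyond the end of SRPK3 on the opposite strand, and held 8 and 14 counts. Per kb of merged exon over both libraries this was 764 for SRPK3, 163 for PLXNB3 and 8.10 for IDH3G. Whether SRPK3 reads lay near IDH3G or near PLXNB3 cannot be told from a count per gene.

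**Figure D3:**
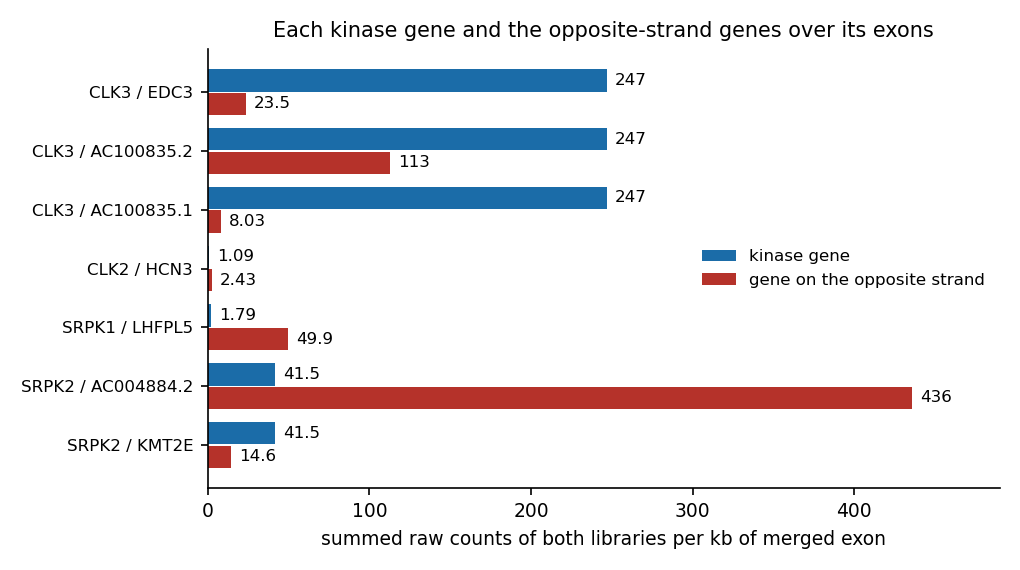
Summed raw counts of both libraries per kb of merged exon for each kinase gene (blue, upper bar of a pair) and each opposite-strand gene over its exons (red, lower bar). CLK3 exceeds its partners, at 247 against 23.5 for EDC3, while SRPK1 at 1.79 and SRPK2 at 41.5 lie below LHFPL5 at 49.9 and AC004884.2 at 436. SRPK2 lies above KMT2E at 14.6.

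Ordered by mean log2 CPM, the 8 genes were CLK3 (11.07), SRPK3 (10.60), SRPK2 (6.81), EDC3 (5.72), SRPK1 (2.65), CLK1 (1.78), CLK2 (1.50) and CLK4 (1.10). From SRPK1 downwards the Poisson intervals of neighbours in this order overlapped in each library, so neighbours could not be told apart at this depth. SRPK1 and CLK4, which are not neighbours, did not overlap in replicate 2, at 4.12 to 17.1 and 0 to 3.69 counts. These low levels depend on the prior count of 2, and with a prior count of 0.5 they were 2.31 for SRPK1, 1.11 for CLK1, 0.27 for CLK2 and -0.36 for CLK4. With the prior count of 2 the SDs of log2 CPM were 0.60 for SRPK1, 0.14 for CLK1, 1.03 for CLK2 and 0.47 for CLK4 (n = 2). The gaps above SRPK1 were larger than the SDs, which were 0.04 for CLK3, 0.06 for SRPK3, 0.18 for SRPK2 and 0.09 for EDC3. Among other protein-coding genes, the one closest to CLK3 in log2 CPM over the 2 libraries was DONSON, with 2047 and 2898 counts at a distance of 0.05, and the one closest to SRPK3 was TAF10, with 1527 and 2145 counts at a distance of 0.12.

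The replicates were then compared by an exact two-sided conditional binomial test with Benjamini-Hochberg adjustment over the 8983 genes that reached 10 counts in both libraries. None of the 4 genes tested differed at an adjusted p under 0.05 (0 of 4), against 0.501% of all genes tested. At an unadjusted exact p under 0.05 it was also 0 of 4, against 769 of all 8983 genes tested. The log2 ratio of replicate 2 over replicate 1 was 0.06 for CLK3 (adjusted exact p = 0.759), -0.09 for SRPK3 (0.660), 0.26 for SRPK2 (0.808) and 0.13 for EDC3 (0.999). The test compares 2 libraries of 1 group. The high counts of CLK3 and SRPK3 were thus present in both libraries.

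The overlaps at the kinase loci were set against all protein-coding genes. An opposite-strand gene lay over the exons of 5 of the 8, and 3 of these, CLK3, SRPK2 and EDC3, reached 10 counts in both libraries, against 42.0% of all such protein-coding genes. Of CLK1, CLK4 and SRPK3, which had none, SRPK3 reached that count, against 12.2%. The 6 opposite-strand genes over member exons other than CLK3 and EDC3 included 4 that reached 10 counts in both libraries. Of all genes whose own exons lie under a protein-coding gene of the opposite strand, 40.0% did so. That wider rule also takes in genes inside introns. The pseudogenes and the small nuclear RNA gene inside SRPK2 introns are such genes, and they did not reach 10 counts in both libraries. The 4 of 6 and the 40.0% thus rest on unlike rules and cannot be compared.

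Splice sites gave a finer division. Of 1104 protein-coding genes whose exons cover an opposite-strand 3′ splice site, 70.4% reached 10 counts in both libraries, and CLK3 and SRPK2 did so while SRPK1 did not. The share was 27.0% of the 11231 genes whose exons cover own sites alone, the class of CLK1, CLK2, CLK4, EDC3 and SRPK3, and 14.8% of the 7469 genes with neither. The class with own sites alone mixes genes with an opposite-strand gene, such as EDC3, and genes without, such as CLK1. These shares therefore do not separate covering a site from having an opposite-strand gene. The median summed count over both libraries was 128.5 in the class with an opposite-strand site, 6 in the class with own sites alone and 2 in the class with neither. Among other genes, AC004884.2 belonged to 1446 whose exons cover an opposite-strand site, of which 59.0% reached that minimum, against 28.2% of those that lie opposite a protein-coding gene without covering a site. Merged exons had a median length of 5528 bases with an opposite-strand site, 5114 with own sites alone and 2760 with neither. Per kb of merged exon the median over both libraries was 23.6 counts, 1.09 and 0.509 in the same order, so the classes also differed in density.

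**Figure D4:**
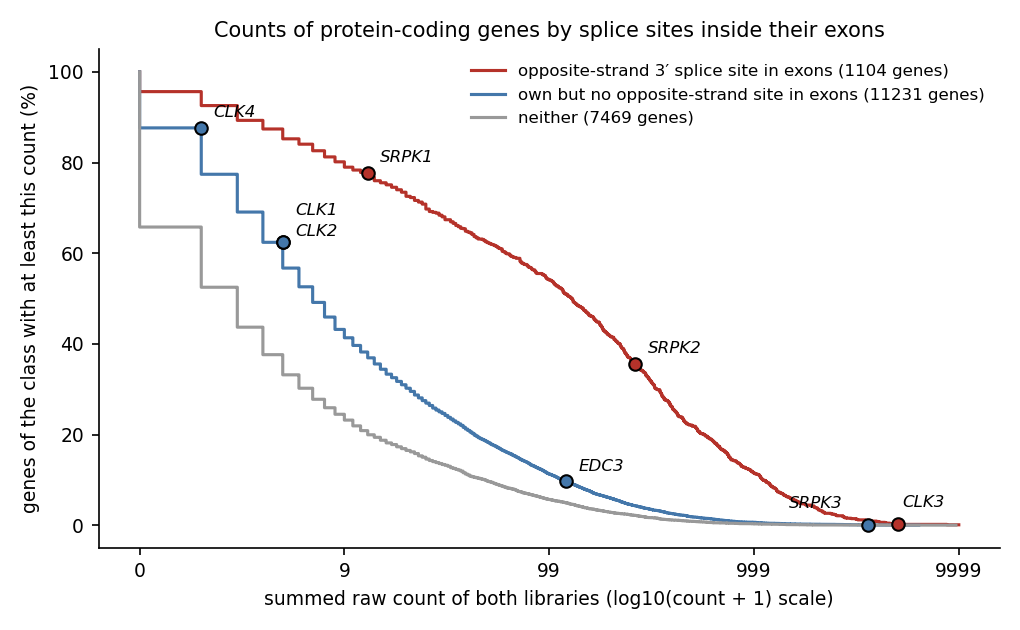
Percentage of protein-coding genes with at least a given summed raw count of both libraries (log10(count + 1) axis), for genes whose exons cover an opposite-strand 3′ splice site (red), own sites alone (blue) or neither (grey). The 7 kinases and EDC3 are marked on the curve of their own class: CLK3 and SRPK3 lie at the far right, and CLK1, CLK2 and CLK4 at the left.

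Sequence shared with annotated transcripts of other genes was measured, since reads mapping to several places are outside the gene counts. Copies outside annotated transcripts were not searched. Of all 50-base stretches of a gene's transcripts, those also found in transcripts of genes elsewhere were 0.109% for CLK1, 3.27% for CLK2, 0.762% for CLK3, 0.530% for CLK4, 0.328% for SRPK3 and 1.14% for SRPK2, and there were 0 for SRPK1 and EDC3. The CLK2 stretches were shared with the pseudogene CLK2P1.

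Substrates and partners of these kinases were read against the 24.8% of all protein-coding genes that reached 10 counts in both libraries. Of 14 SR protein genes, 5 did so. SRSF9 led with 82 and 106, followed by SRSF10 with 29 and 35 and SRSF2 with 19 and 39, while SRSF3 held 0 in both. SRSF2 exons cover a site of MFSD11 on the other strand. The median summed count was 16.5 for the SR genes and 4 for all protein-coding genes. Among the kinases that CLK and SRPK genes were set beside, 3 of 16 reached 10 counts in both libraries. A gene of the other strand lay across the exons of 10 of the 16, these 3 among them, against 42.0% reaching that count among all such protein-coding genes. They were CDK13, a transcriptional kinase, with 98 and 91 counts, DYRK1A with 28 and 50, and the SRPK regulator AKT1 with 18 and 16. DYRK2 held 0 in both libraries.

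Phosphatases and regulators of SR proteins had 4 of 13 genes that reached 10 counts in both libraries. The chaperone gene HSPA8 held 35 and 39, PPP1CA, a catalytic subunit of protein phosphatase 1, 30 and 38, and PPP1R10, a subunit that targets it, 26 and 33. PPP1CC and PPP2CA held 0 in both. TNPO3, the importer of phosphorylated SR proteins, held 1 and 1. Of 8 other genes of decapping and mRNA decay, none reached 10 counts in both libraries. DCP1A with 3 and 8 and PATL1 with 6 and 4 held the most, and EDC3 was above every one of them in both libraries.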

How the data were processed

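U2AF2 eCLIP libraries of 2 biological replicates were used. The deposited table holds raw counts per gene, as whole numbers. The build GRCh38.p10 and the tools STAR 2.7.0f and cutadapt are named, per the submitters' processing notes. The counting step, strand setting, annotation release and duplicate removal are not given in the sources used here. The 4 tallies of unassigned reads were left out of library sizes. They made up most reads, with 97.3% and 97.4% of uniquely mapped reads on no feature.

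Genes were matched without version to GENCODE 29 (GRCh38): 58084 of 58347 had a model, and 7 of 8 member identifiers had the same version. Library sizes were scaled by TMM in edgeR 4.0.16 (R 4.3.3) from genes that reached 10 counts in both libraries, with factors of 1.01 and 0.987, and a prior count of 2 was added before log2 CPM was taken. DESeq2 1.42.0 gave alternative size factors. With 1 group, no quasi-likelihood test existed. The exact conditional binomial test between libraries was tested on simulated data. A 3′ splice site counted as covered when a gene's merged exons held all of the last 50 intron bases, over 237442 sites of protein-coding genes, a rule chosen after the counts were seen. Mitochondrial genes and the second copy of pseudoautosomal genes were left out of protein-coding classes. Python 3.11.15, numpy 2.4.6, scipy 1.17.1, pandas 2.3.3 and matplotlib 3.10.9 were used.

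The members and lists were chosen with earlier results of these data known. Named genes were the 8 listed genes, genes overlapping them, nearest neighbours, the 3 highest and the lowest of each list, and the closest gene in level to CLK3 and SRPK3. Not every neighbour is reported here. The erythroid marker list is not reported here.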

Additional observations from a re-analysis of the deposited data

How the results depend on the processing

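The number of the 8 genes that reached the minimum in both libraries stayed within 1.5 times under minimums of 1, 5 and 50 counts and with either library alone. The number of opposite-strand genes did so under minimums of 5 and 50 counts, with exon overlap required and with either library alone. No member differed between the libraries with DESeq2 size factors, total counts, Bonferroni adjustment or no minimum on counts. The median log2 CPM of the 8 genes minus that of all protein-coding genes was 2.40. It was 2.99 with a prior count of 0.5, 3.39 for the 4 members among genes that reached 10 counts in both libraries, 1.36 as counts per kb of merged exon, 0.87 for the 7 kinases without EDC3 and 0.42 for the 3 genes with no opposite-strand gene. It ranged from 2.06 to 2.45 when each replicate was left out, and the sign was positive in all these settings. The median of the 7 kinases was the level of SRPK1, and that of the 3 genes was the level of CLK1. Both genes stayed under 10 counts in each library, so these differences rest on low counts. The EDC3 share of the EDC3 and CLK3 counts was 2.31%, 8.66% per kb of merged exon and 2.26% to 2.37% with 1 library left out. For the 3 genes with no opposite-strand gene, the background was the 11433 protein-coding genes that also had none. These settings changed the genes, libraries, denominator or prior count used, and why the values differed was not tested. The share of genes with an opposite-strand site in their exons that reached 10 counts in both libraries was 70.2% with a window of 25 bases and 70.7% with 100 bases, settings chosen after seeing the data. No paired analysis was possible because there was 1 group. With a prior count of 0.5 the levels of 3 of the 8 genes, CLK1, CLK2 and CLK4, moved by more than the SD between libraries. Depth limits the order of neighbours among CLK1, CLK2, CLK4 and SRPK1.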
